A study of Mus musculus with 4 samples.

Results

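The genes Gata3, Rora, Ahr, Zbtb16, Zbtb32, Zfp683 and Bcl11b encode transcription factors that set apart the lineages of innate lymphoid cells, the family to which natural killer (NK) cells belong. The accessible chromatin regions of these 7 genes were described in cultured NK cells of the mouse. A region was counted for a gene when that gene was the nearest protein-coding gene, by the distance between the region and the gene's span from its first to its last annotated base. By this rule 156 of 91266 regions belonged to the genes. The gene table used, RefSeq on GRCm38.p6, carries Zfp683 as a pseudogene, so that the rule gave it no region and the 156 regions belonged to the other 6 genes. The regions whose nearest gene of any biotype was Zfp683 are described separately.

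The regions came from ATAC-seq, which reads open chromatin from the places where a transposase inserts sequencing adapters. The study compared splenic NK cells of wild-type C57BL/6 mice after 72 h of culture in a high dose (labelled HD IL-15, 2 biological replicates) or a low dose (labelled LD IL-15, 2 biological replicates) of interleukin-15 (IL-15), a cytokine that NK cells need to survive. About 75000 cells entered each library, and the labels do not give the concentrations of the doses. The deposited tables hold 1 list of regions for the whole series and the authors' own calls of regions that differed between the doses, in an up list and a down list, with 0 columns of values per sample. Depth and replicate spread are therefore unknown, no dose comparison could be tested, and the authors' deposited calls are given as theirs. The sources used here do not say which dose was the reference, so neither name can be tied to a dose.

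NK cells and the other innate lymphoid cells arise from a shared precursor and take different fates according to which transcription factors they keep. GATA3, a zinc finger factor, is needed early for the helper-like lineages and stays high in group 2 cells and T cells, while RORα, a nuclear receptor, is required for group 2 cells. AHR, a receptor that is activated by small ligands, maintains group 3 cells and liver-resident NK cells. PLZF, the product of Zbtb16, marks the precursor of the helper-like lineages. ZBTB32 was described as a repressor of GATA proteins and is needed for NK cells to proliferate during viral infection. HOBIT, the product of Zfp683, supports residence in tissues, and BCL11B commits cells to the T lineage and is used by group 2 cells.

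The labelled cell type was set against marker genes by position only, because an open region does not measure expression. A region lay within 1000 bp of an end of the gene for 12 of 12 NK markers (such as Ncr1 and Eomes) and for 4 of 4 markers of group 1 innate lymphoid cells. The same was found for 5 of 8 T cell markers, 3 of 6 B cell markers, 3 of 6 and 2 of 6 markers of group 2 and group 3 cells and 2 of 8 myeloid markers. A region overlapped the span of 12 of 12 NK markers, 5 of 8 T cell, 3 of 6 B cell and 3 of 8 myeloid markers, and of 4 of 4, 3 of 6 and 4 of 6 markers of group 1, 2 and 3 cells. The overlapped genes included Ebf1 and Pax5 of B cells and Itgam of myeloid cells, and those without a region included Cd8a, Ms4a1 and Lyz2.

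Of the 4 genes with a promoter in the RefSeq table, Zbtb32 had an annotated start within a listed region, and its promoters are shown for that reason beside that of Gata3, whose start was open but unlisted. The sequences are the 250 bases before each RefSeq start on GRCm38.p6, read 5′ to 3′ on the minus strand. Capitals mark exact matches to the motifs searched, in either orientation.
Zbtb32 internal start, chr7:30592943-30593192: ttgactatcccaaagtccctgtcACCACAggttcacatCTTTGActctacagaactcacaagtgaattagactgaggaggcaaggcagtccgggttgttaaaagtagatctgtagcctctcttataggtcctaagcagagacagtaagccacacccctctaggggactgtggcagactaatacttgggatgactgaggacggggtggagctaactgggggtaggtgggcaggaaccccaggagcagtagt
Zbtb32 upstream start, chr7:30598910-30599159: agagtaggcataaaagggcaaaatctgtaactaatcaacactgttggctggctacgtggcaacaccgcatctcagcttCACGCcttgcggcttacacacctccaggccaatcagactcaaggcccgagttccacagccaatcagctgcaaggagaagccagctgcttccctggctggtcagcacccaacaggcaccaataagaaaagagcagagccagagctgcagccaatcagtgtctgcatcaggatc
Gata3 start, chr2:9878601-9878850: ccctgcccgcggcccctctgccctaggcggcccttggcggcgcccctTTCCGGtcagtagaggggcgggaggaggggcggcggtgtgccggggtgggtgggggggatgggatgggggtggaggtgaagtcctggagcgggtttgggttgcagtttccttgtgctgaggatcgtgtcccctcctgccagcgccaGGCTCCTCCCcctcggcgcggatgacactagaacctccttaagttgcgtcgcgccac

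In the window of the internal Zbtb32 start the capitals are a RUNX match (TGTGGT, here on the opposite strand) at -227 to -222 from the start and a TCF match (CTTTGA) at -212 to -207. The window of the upstream Zbtb32 start held 1 match, to the AHR core GCGTG, on the opposite strand at -172 to -168. The Gata3 window held an ETS match (CCGGAA, opposite strand) at -203 to -198 and an NF-kB match (a spaced motif of 10 letters, opposite strand) at -57 to -48. None of these matches overlapped another. Of the 32851 promoter windows of the RefSeq table, 14.0% held TGTGGT in the 250 bases before the start, 13.8% CTTTGA, 28.2% GCGTG, 12.0% CCGGAA and 17.6% the NF-kB motif, so that each match is common. The GATA motifs AGATAA and TGATAA were not in these 3 windows, and neither were the ROR motif AGGTCA, the T-box motif AGGTGTGA, the second ETS motif AGGAAG, the STAT motif TTCNNNGAA and the AP-1 motif TGANTCA. The tabulated promoter windows of Rora and Bcl11b lay outside every region and are not printed. The closest region was 160466 bp from the Rora window but 191 bp from the Bcl11b window, on its upstream side.

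Zbtb32 occupies chr7:30589680-30602819 and had 3 regions, all inside the gene. The region in the up list, at chr7:30592908-30593874, was 967 bp wide. It covered all 250 bases of the internal promoter shown above and the start itself. Few promoters were in this position: 0.405% of the 32851 promoter windows (250 bases before to 50 after the start) overlapped an up region and 0.134% a down region, while 41.6% overlapped a region of any kind. The upstream Zbtb32 start lay outside every region, and the closest, of 410 bp at chr7:30599941-30600350, was 782 bp from its promoter window and unlisted. The remaining region was 151 bp wide at chr7:30594255-30594405, 380 bp from the up region, and was also unlisted. A further unlisted region spanned the ends of both Zbtb32 and its neighbour Kmt2b, whose spans are 0.62 kb apart, and the tie went to Kmt2b by symbol order. Zbtb32 thus had 1 listed region of 3, and 40.6% of the 16392 genes nearest to a region had fewer regions.

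**Figure D1:**
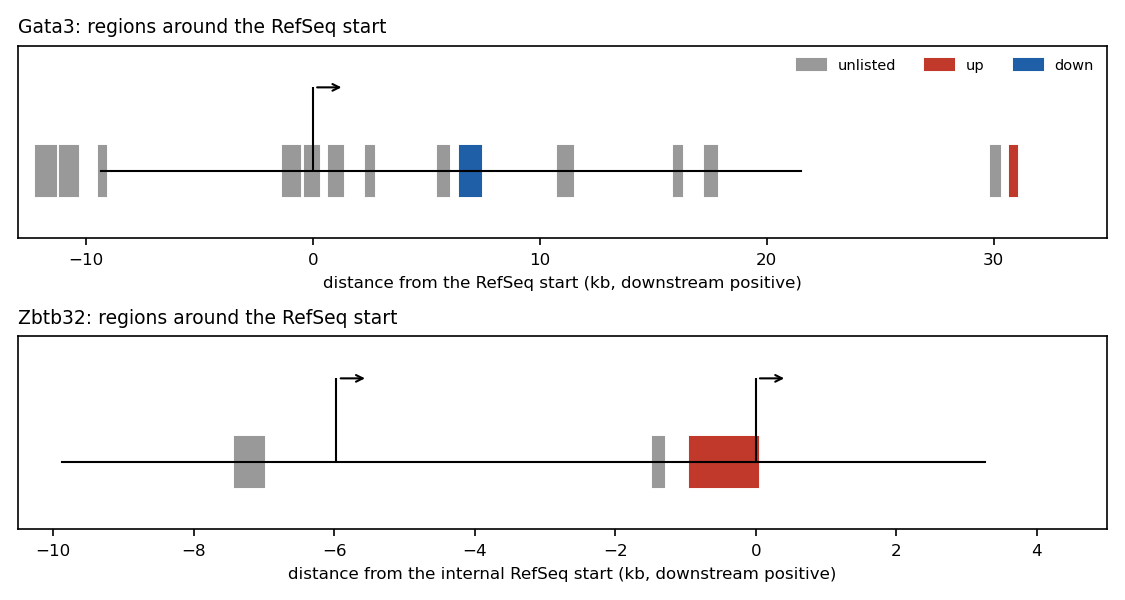
Regions assigned to Gata3 (top, those nearest the gene) and Zbtb32 (bottom) along the gene (black line), with RefSeq starts as bent arrows and the x axis in kb from the Gata3 start or the internal Zbtb32 start, downstream positive. The up region of Zbtb32 covers the internal start, the upstream start is outside every region, and the start of Gata3 lies in an unlisted region with the down region 6.50 kb further downstream.

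Gata3, at chr2:9857078-9887953, had 46 regions, more than 99.6% of genes with a region. This was the highest number of the 7 genes by the nearest-gene rule but not with distant regions left out: at most 100 kb away there were 18, beside 33 at Zbtb16 and 32 at Rora. It also held most of the listed ones, with 4 regions up and 2 down. The gene lies at the edge of a desert: on its lower-coordinate side, which is downstream because the gene is read from the minus strand, the next protein-coding gene, Celf2, was 2461 kb away, whereas Taf3 on the other side was 26.6 kb away. Of the 46 regions 33 lay on the downstream side, 10 inside the gene and 3 upstream. Of the 36 regions outside the gene, 5 were within 10 kb of it, 3 between 10 and 100 kb, 15 between 100 and 300 kb, 9 between 300 and 500 kb and 4 beyond 500 kb. The farthest, at chr2:8674072-8674333, was 1183 kb from the gene and unlisted. For 29 of the 46 regions, 4 of them listed, a non-coding gene or pseudogene was closer than Gata3.

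At the Gata3 gene itself, the start lay in an unlisted region of 634 bp, chr2:9878337-9878970, which covered the whole promoter window. Inside the gene 1 region was listed, a down region of 909 bp at chr2:9871188-9872096, 6.50 kb downstream of the start. Its neighbour on the higher-coordinate side was 496 bp away and unlisted. The other 9 regions inside the gene were unlisted, including the region of 321 bp at the upper end of the span, chr2:9887702-9888022. The gene held 32.4 regions per 100 kb, a density above that of 99.0% of the 13962 protein-coding genes of at least 10000 bp, whose median was 6.45 per 100 kb. This comparison was not matched for length, and Zbtb32, with a span of 13.1 kb, was above 98.6% of these genes.

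Downstream of Gata3 the listed regions were mixed. An up region of 330 bp at chr2:9847555-9847884 lay 9.19 kb past the gene and 414 bp from an unlisted neighbour. Next came an up region of 428 bp at chr2:9574144-9574571, 283 kb past the gene, then a down region of 587 bp at chr2:9535835-9536421, 321 kb past it, and an up region of 400 bp at chr2:9493734-9494133, 363 kb past it. The last, an up region of 455 bp at chr2:8865428-8865882, was 991 kb past the gene. As background, an enhancer active in T and NK cells is known in the distant region 3′ of Gata3. Its coordinates were not used here, and none of these regions was identified with it. The widest Gata3 region, of 1067 bp at chr2:9507116-9508182, lay among them and was unlisted.

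The alternation of lists at Gata3 was noticed after its values were seen. Of its 5 pairs of consecutive listed regions, 3 joined an up and a down region, with gaps of 23.3, 37.7 and 41.7 kb, and 2 joined up regions, with gaps of 273 and 628 kb. Over all genes, 84.9% of 1821 consecutive listed pairs assigned to the same gene were in the same list, and 78.5% of the 738 pairs with gaps from 20 to 100 kb. Gata3 was 1 of 37 genes with at least 6 listed regions, of which 12 had regions in both lists, and 1 of 119 genes with at least 4 up regions.

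**Figure D2:**
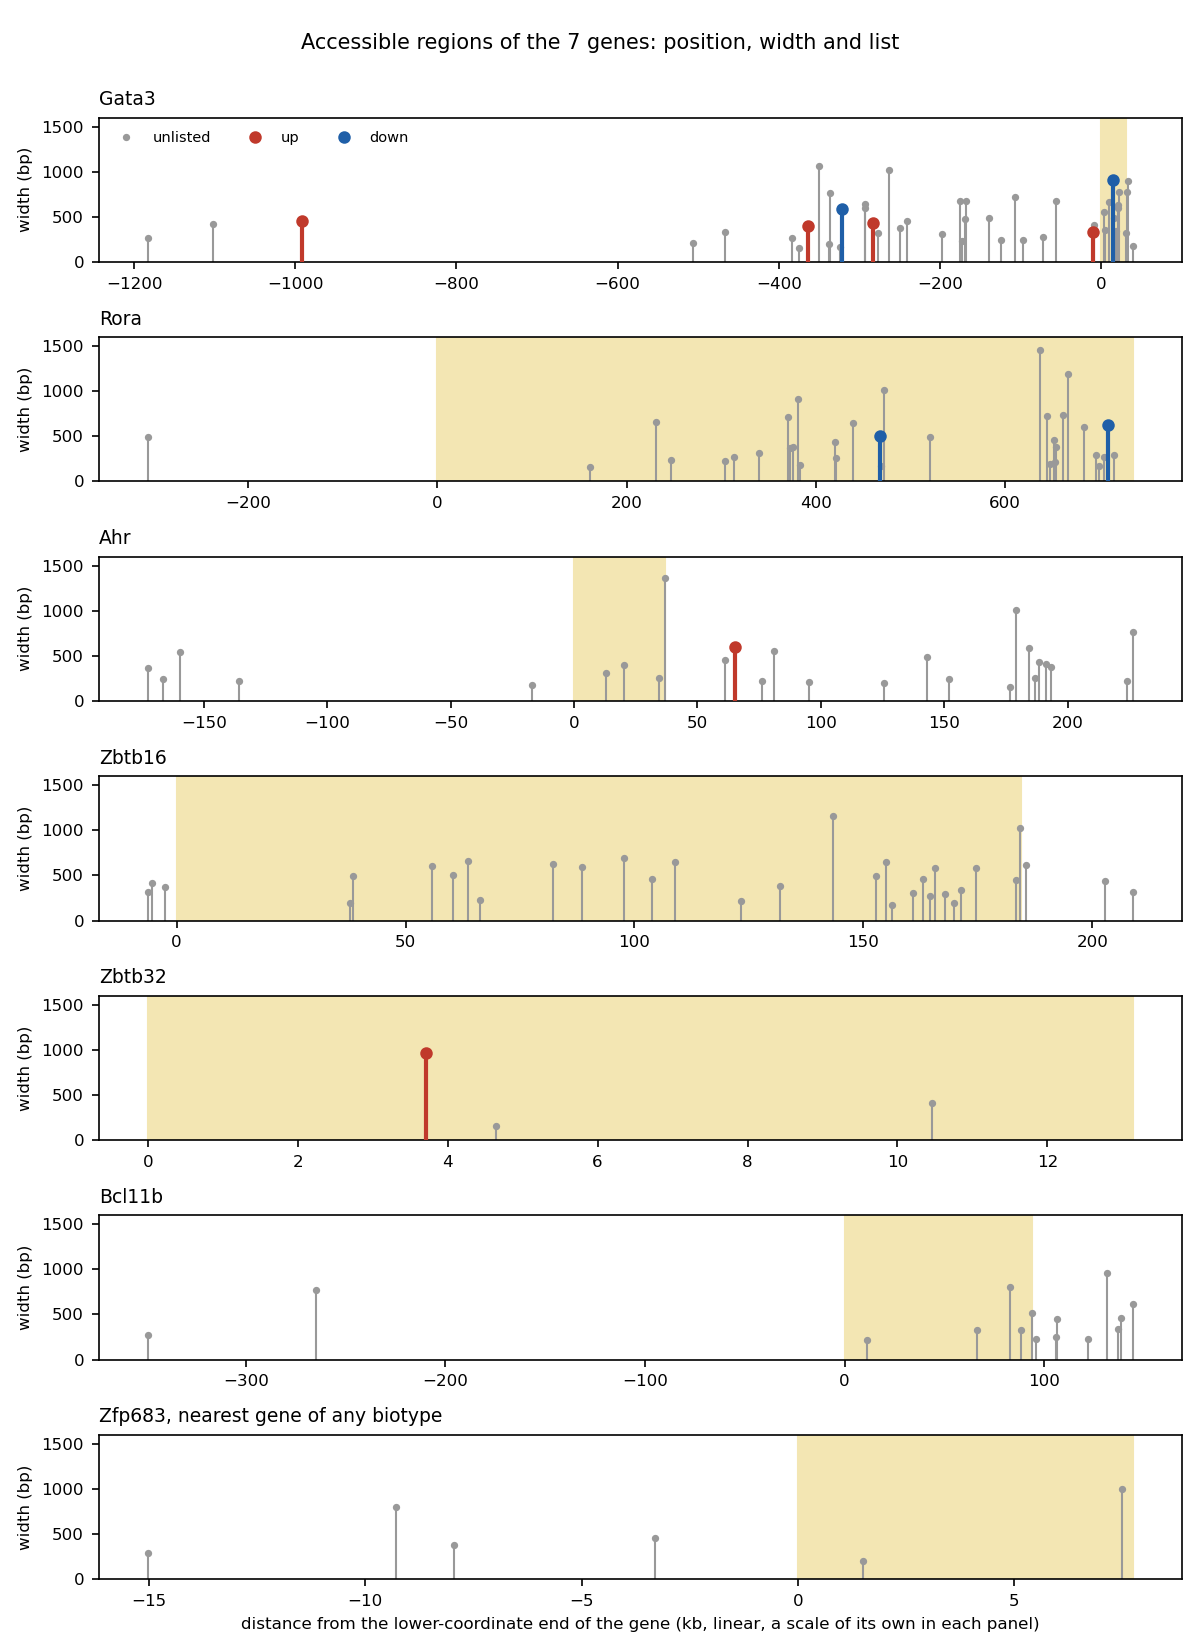
Each stem is a region, placed by its midpoint in kb from the lower-coordinate end of the gene (x axis, a scale of its own in each panel) with its width in bp as height, and the shaded band is the gene. Listed regions are at Gata3, Rora, Ahr and Zbtb32, those of Gata3 lie mostly in the desert on the left, and Zbtb16, Bcl11b and Zfp683 have none.

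Rora, at chr9:68653404-69388246, is the longest of the genes, with a span of 735 kb. Of its 33 regions 32 lay inside the gene, and the other, at chr9:68347293-68347782, was 306 kb before it. Both listed regions were down and inside the gene. The first, of 500 bp at chr9:69121123-69121622, lay 467 kb downstream of the RefSeq start, with an unlisted neighbour 317 bp away. The second, of 629 bp at chr9:69361999-69362627, lay 708 kb downstream of that start and overlapped the long non-coding RNA gene Gm15511.

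The open regions of Rora were in the later parts of the gene. In 4 equal parts of the span, from the start onwards, they numbered 1, 5, 12 and 14. The RefSeq start in the promoter table lay outside every region, and the closest region, chr9:68814301-68814464, was 160466 bp from its promoter window. No region lay within 1000 bp of either end of the gene. The widest, of 1458 bp at chr9:69289394-69290851, opened the last group of regions after a gap of 115 kb and was unlisted. The density was 4.35 regions per 100 kb, above that of 36.2% of the genes of at least 10000 bp, a comparison not matched for length.

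Ahr, at chr12:35497979-35534989, had 26 regions, of which 4 were inside the gene, 5 on its lower and 17 on its upper side. The region in the up list was 597 bp wide at chr12:35562803-35563399, 27.8 kb beyond the upper end, with unlisted neighbours 3566 and 10593 bp away. The widest, of 1364 bp at chr12:35534027-35535390, covered the upper end of the gene and was unlisted. For 16 of the 26 regions, none of them listed, a gene that is not protein-coding was closer than Ahr. Between 88.7 and 156 kb from Ahr, 10 unlisted regions were closest to the long non-coding RNA gene 9130015A21Rik, and 7 of them lay inside it. The farthest region, chr12:35723928-35724694, was 189 kb away. The next protein-coding genes were 350 kb (Snx13) and 391 kb (Agr3) away, so that such distant regions counted for Ahr.

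Zbtb16, at chr9:48651797-48836225, had as many regions as Rora, 33, and neither list held any of them. Of these, 27 were inside the gene and 6 within 24.3 kb of it, the farthest at chr9:48860490-48860809. The last of 4 equal parts of the gene, at its upper end, held 14 of the 27. That end was marked by 3 regions, of 450, 1028 and 611 bp, at chr9:48834950-48835399, chr9:48835599-48836626 and chr9:48836915-48837525. The widest region, of 1154 bp at chr9:48794620-48795773, lay inside the gene, 40.5 kb from that end. Of 276 genes with at least 30 regions, 35 (12.7%) had none. Among the 20 genes with exactly 33 regions, 6 had none.

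Bcl11b, at chr12:107910403-108004145, had 15 regions, also in neither list. Of the 1325 genes with at least 15 regions, 31.2% had no listed region. Its 5 regions inside the gene included 1 of 512 bp at chr12:108003855-108004366. It began 191 bp upstream of the promoter window of the RefSeq start and covered the upper end of the span. The upper end is the 5′ end, because the gene is read from the minus strand. Another 8 followed above that end, the widest of them and of the gene with 962 bp at chr12:108041525-108042486. The remaining 2 lay on the lower side, at chr12:107645179-107645944 and chr12:107561255-107561525, 264 and 349 kb away.

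Zfp683, at chr4:134051195-134058941, was the nearest gene of any biotype to 6 regions, none of them listed. By the rule for protein-coding genes, 5 of these counted for Crybg2 and 1 for Lin28a. The widest, of 996 bp at chr4:134058204-134059199, covered the upper end of the gene. A second, of 201 bp at chr4:134052608-134052808, was inside the gene, and 4 lay on its lower side, the farthest, chr4:134036023-134036312, 14.9 kb away.

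Over the 156 regions, 6 (3.85%, 95% Wilson interval 1.77 to 8.14%) were up, against 4.21% of all regions, and 4 (2.56%, 1.0 to 6.41%) were down, against 1.4%. In total 10 regions (6.41%, 3.52 to 11.4%) were listed, against 5.61%. The up share was near that of the series and the down share above it, and the intervals, which cover counting error only, included the share of the series in each case. At the listed shares of their width classes, the 156 regions would hold 7.34 up and 2.36 down regions. By gene, 3 of the 6 genes with regions had an up region, 2 had a down region and 2 had neither. Over the 16392 genes nearest to a region, 16.1% had an up region, 5.39% a down region, 1.36% both, as Gata3 did, and 20.1% either, but their median number of regions was 3, fewer than that of 5 of these 6 genes.

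The listed regions were also counted by position. Of the 75 regions outside the genes, 5 were up (6.67%, 2.88 to 14.7%) and 1 was down (1.33%, 0.236 to 7.17%). Of the 81 inside, 1 was up (1.23%, 0.218 to 6.67%) and 3 were down (3.70%, 1.27 to 10.3%). For all regions the up share was 5.46% outside and 3.42% inside genes, and the down share was 1.45% and 1.36%. With 10 listed regions the intervals are wide and overlap, and the difference was not tested. More than 100 kb from their gene lay 46 regions (29.5%), against 6.10% of all regions, but 43 of them belonged to Gata3 and Ahr, which lie beside wide stretches without protein-coding genes, and 3 of 84 to the other genes. Of the 156 regions, 6 (3.85%) were within 1000 bp of an end of it, against 16.9%. None of these 6 was listed.

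Across the 156 regions the median width was 414.5 bp, with quartiles of 265 and 613 bp, beside 400 bp for all regions. By gene the median ran from 336 bp at Bcl11b to 460 bp at Zbtb16. The 6 up regions were 330 to 967 bp wide with a median of 441.5 bp, and the 4 down regions 500 to 909 bp with a median of 608 bp. In the whole series these medians were 453 and 537 bp. Narrower than the narrowest listed region were 58 of the 156 regions, and 9 were wider than the widest.

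**Figure D3:**
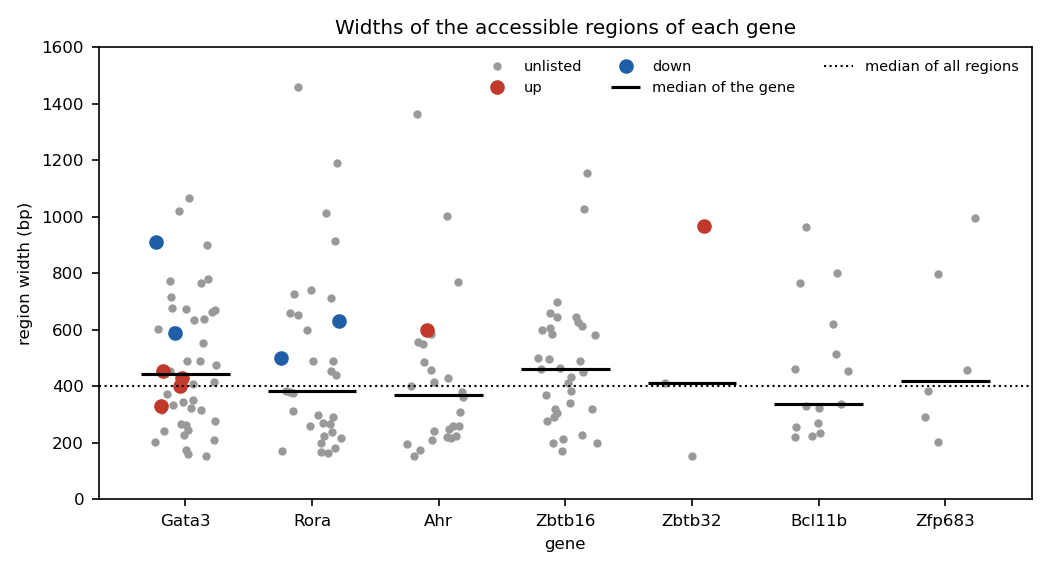
Width in bp (y axis) of every region of each gene (x axis), with the gene's median as a bar and the median of all regions, 400 bp, as a dotted line. Listed regions lie between 330 and 967 bp, while the widest, of 1458 bp at Rora and 1364 bp at Ahr, are unlisted.

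Related factors and the genes around them were described from fixed lists, some of which share genes. Among 20 paralogues and relatives of the 7 factors, 6 had an up region, 3 of which also had a down region, and 14 had neither. They included Arnt2, a dimer partner of AHR-type proteins, with 8 of 20 regions up, Bcl11a, the sister gene of Bcl11b, with 4 of 36 up, and Gata6 with 1 up and 4 down of 19. Ahrr, which encodes the repressor of AHR, had 1 up and 1 down of 10, and Zbtb18 had 1 of 13 up. Of 36 other lineage factors of innate lymphoid and NK cells, 14 had an up region, 15 a down region, 7 of these both, and 14 neither. Maf, a factor of several lymphoid lineages, had 7 of 18 regions up, whereas Tox had 2 up and 9 down of 53. Ikzf1 had 4 of 35 down and Ikzf2 1 up and 4 down of 31. Id2, the inhibitor of E proteins that all innate lymphoid cells need, had 3 of 77 down. Bcl6 had 4 of 23 down, and Prdm1, which encodes Blimp-1, the relative of HOBIT, had 3 up and 1 down of 44.

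Of 17 genes of type 2 lymphoid cells, which GATA3 and RORα serve, 5 had an up region and 3 a down region. Ccr4, a chemokine receptor, had 5 of 6 regions up, Il7r 2 of 4 down and Icos 1 up and 2 down of 21. Ptgdr2 had 1 of 2 up, Pparg 1 of 3 up and Hpgds 1 up and 1 down of 6, while Il5, Il13 and Il1rl1 had no listed region. In the AHR pathway 10 of 12 genes had neither, and beside Ahrr the receptor kinase gene Kit had 1 of 26 regions up. Of 12 genes of HOBIT and tissue residence, 3 had an up region and 7 a down region. Itga1, a collagen-binding integrin of resident cells, had 4 of 31 up and Itgae 1 of 8 up. Several genes of recirculation had regions in the down list, with 3 of 31 regions at S1pr1, 2 of 9 at Klf2, 1 of 4 at S1pr5 and 1 of 19 at Ccr7. Rgs1, which is high in resident cells, also had 1 of 28 regions down.

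Of 15 genes of BCL11B and the T lineage, which include Gata3, 4 had an up region and 4 a down region. Cd28 had 1 up and 3 down of 20 and Cd6 had 1 of 7 up. Of 13 partners of PLZF and genes of innate-like lymphocytes, 2 had an up region and 7 a down region. Cd44 had 2 up and 1 down of 21, and Slamf6 had 3 of 6 down. Gene counts of this kind read against 16.1% of all genes with an up region and 5.39% with a down region, but genes differ in their number of regions, so shares of regions are given as well.

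Up regions made up 7.96% of the 226 regions of the paralogues (5.10 to 12.2%) and 9.47% of the 95 regions of type 2 genes (5.06 to 17.0%), against 4.21% of all regions. Both shares rested on 1 gene: without Arnt2 the paralogues had 4.85% up, and without Ccr4 the type 2 genes had 4.49% up. In the other lists the up share was 2.86% for lineage factors, 2.98% for PLZF partners, 3.39% for the AHR pathway, 3.64% for the residency list and 3.95% for the T lineage list. Down regions were above the 1.4% of the series in most lists, with 5.91% of 220 regions in the residency list (3.49 to 9.85%), 5.36% of 168 for PLZF partners (2.84 to 9.87%) and 5.26% of 95 for type 2 genes (2.27 to 11.7%). The T lineage list had 4.82% of 228 (2.72 to 8.43%) and the lineage factors 4.19% of 978 (3.11 to 5.64%). The down regions of the T lineage list were 4 at Ikzf1, 3 at Cd28, 2 at Gata3 and 2 at Ets1. Ikzf1 and Ets1 are also among the lineage factors, and Gata3 is 1 of the 7 genes. Paralogues had 2.65%, and 0.966% without Gata6, and the AHR pathway had 1.69%, from the 1 down region of Ahrr. Among the marker lists, the NK markers had 0.741% of 135 regions up (0.131 to 4.08%) and 7.41% down (4.07 to 13.1%), or 4.84% down without Ncr1. The group 1 markers had 7.41% of 54 regions up (2.92 to 17.6%), all 4 of them at Itga1, and 1.85% down. The group 3 markers, which share Ncr1 with the NK markers, had 10.2% of 59 regions down (4.74 to 20.5%), and 4.17% without Ncr1. The B cell markers had 14.3% of 28 regions up (5.70 to 31.5%), 3 of these 4 regions at Ebf1. The T cell markers (13 regions) and the myeloid markers (26 regions) had 0 regions in either list. The group 2 markers had 1 of 21 regions up and 0 down. The part of other cell types in these shares was not tested. These differences from the series were not tested.

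**Figure D4:**
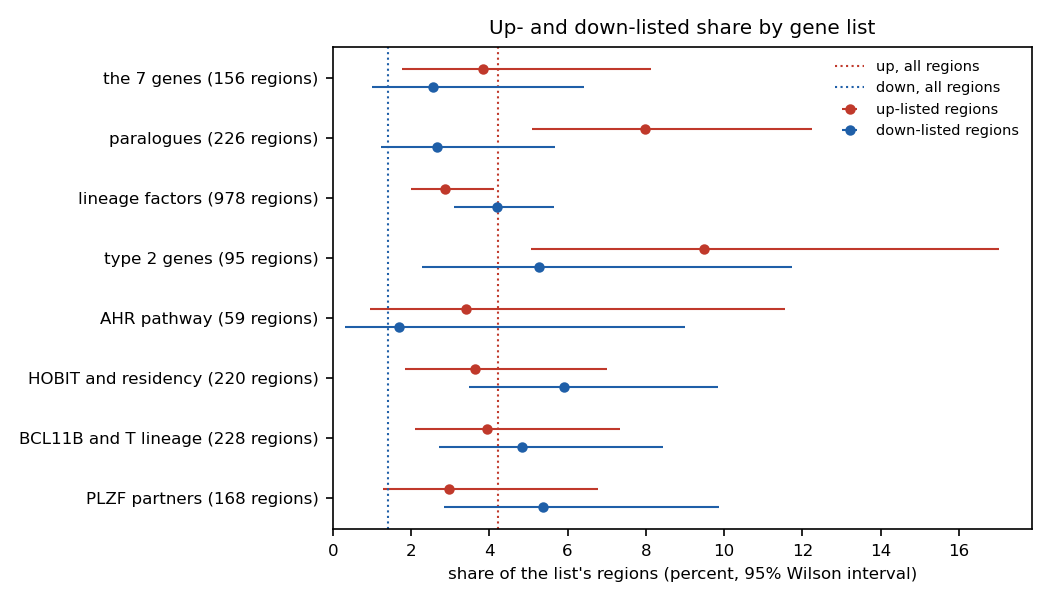
Share of each list's regions (x axis, percent) in the up list (red) and the down list (blue), with 95% Wilson intervals that cover counting error only and dotted lines at the shares of all regions, 4.21% and 1.4%. Each interval of the 7 genes includes the line of its own colour. The up intervals of the paralogues and type 2 genes lie above the red line, each resting on 1 gene (4.85% without Arnt2, 4.49% without Ccr4), and that of the lineage factors lies below it. The down intervals of the lineage factors, type 2 genes, residency list, T lineage list and PLZF partners lie above the blue line. Some lists share genes, and the differences were not tested.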

How the data were processed

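ATAC-seq was performed on 4 samples, 2 per dose, grouped by the dose in their titles. The submitters' processing notes name build mm10 and the tools BWA, ArchR, MACS2 and HOMER 4.11.1 without roles. Whether peaks were called per sample or pooled, the differential test and its threshold are not given in the sources used here. The deposited tables hold positions and widths only, so the planned dose test could not be made.

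Starts were 0-based and were raised by 1. Each of the 3845 up and 1275 down regions was identical to a listed region of the full table, and 0 were in both lists. Gene spans, biotypes and promoter sequences came from RefSeq tables of GRCm38.p6, the assembly that mm10 names. They do not mark exons, introns or untranslated regions. Regions were assigned among 21887 protein-coding genes on the chromosomes, with ties going to the nearer gene end and then to symbol order. Assignment recovered known genes and distances in simulated data. Motif matches were exact, on both strands. Python 3.11.15, pandas 2.3.3 and SciPy 1.17.1 were used.

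The genes and lists were chosen with earlier results of these data known, and no test was made over them. Named for each gene are the listed, widest, farthest and boundary regions, and for other lists genes with listed regions. Regions are not replicates. Some genes of these lists are not reported here by name.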

Additional observations from a re-analysis of the deposited data

How the results depend on the processing

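No paired analysis was possible because the tables hold no values per sample, and for the same reason no replicate could be left out and no other normalization or stricter threshold tried. Assignment to the nearest transcription start was not run, since the promoter table held 4 of the 7 genes. The counts of 156 regions, 6 up and 4 down depended on how far from a gene a region may lie. With genes of every biotype, 3 up and 2 down regions remained assigned. Counting regions that overlap the gene span, whichever gene is nearest, gave 84 regions with 1 up. Within 10 kb of the span there were 99 regions with 2 up, and within 50 kb 3 were up. With nearest genes at most 100 kb away 3 were up. Keeping regions of at least the median width left 84. Without Gata3, 4 of the 10 listed regions were left. Gata3 had 17 regions with genes of every biotype, 10 overlapping its span, 15 and 17 within 10 and 50 kb and 18 at most 100 kb away, and was then no longer the gene with the most. Ahr went from 26 regions to 10 with genes of every biotype, 4 overlapping its span and 11 at most 100 kb away. Bcl11b went from 15 to 5 overlapping its span and 6 within 10 kb. Windows around a gene also added regions nearer to another gene, as at Zbtb32 (14 within 50 kb). The counts stayed within 1.5 times the reported value when distances were measured from the midpoint, when regions under 1 kb apart were joined and, an alternative chosen after the data were seen, with Zfp683 treated as protein-coding (162 regions, 6 up, 4 down). Leaving out Zbtb16, Bcl11b or Zfp683 could not change the listed count, since none of them has a listed region. Depth is unknown, so whether an unlisted region had too few reads to be called cannot be judged. Leaving out Arnt2, Ccr4, Gata6 and Ncr1 from their lists was also chosen after the data were seen.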
